A study of Mus musculus with 16 samples.

Results

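The IFNγ response of Sin3B knockout cells was measured in KPC1199 cells, a mouse pancreatic ductal adenocarcinoma line derived from spontaneous tumors of the KPC model, in which Pdx-cre switches on mutant alleles in the pancreas, Trp53 among them. The members are the 6 RNA-seq libraries of cells carrying the guide Sin3Bsg1, 3 kept without IFNγ and 3 given 10 ng/ml IFNγ for 24 h, out of 16 libraries in the series and 12 in the IFNγ experiment. The other 6 libraries of that experiment came from the same line with the control guide sgCtrL, labelled WT, again 3 without and 3 with the same IFNγ treatment. All cells carried a lentiCRISPR v2 vector, were selected with puromycin and grew in DMEM with 10% FBS. Neither the labels nor the methods say whether the Sin3Bsg1 cells are 1 clone or a pool, or whether the 3 libraries of a group came from separate cultures, so the p-values measure only the spread between these libraries.

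SIN3B is a scaffold protein of a histone deacetylase complex that represses transcription. IFNγ, a cytokine of T cells and NK cells, binds the receptor pair IFNGR1 and IFNGR2, and the receptor-bound kinases JAK1 and JAK2 then switch on STAT dimers that bind a short DNA element called GAS. The factors made in this first step, above all IRF1, go on to bind a second element called ISRE. In tumor cells the program is known for antigen presentation, T-cell-attracting chemokines and the checkpoint ligand PD-L1.

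The sequences printed here are the guide that defines the knockout and the promoter stretches of genes at the front of the response. The guide is shown with its PAM in capitals. It matched 1 site exactly, at GRCm39 chr8:73449982-73450001 on the + strand, in coding sequence of exon 1 of Sin3b.
Sin3Bsg1: tggctcccgctggggtcgttCGG

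Promoter stretches were read from RefSeq start regions (GRCm38.p6), 5′ to 3′ on the strand of the gene, as 30 bases from 5 bases before the first element. Capitals mark GAS, spelled TTCNNNGAA, and ISRE, spelled TTTC, any 2 bases and TTTC, or on the other strand GAAA, any 2 bases and GAAA. Irf1 is shown for a GAS alone (chr11:53769919-53769948, + strand) and Gbp2 for an ISRE alone (chr3:142620599-142620628, + strand). Igtp (chr11:58199506-58199535, + strand), Irgm2 (chr11:58214897-58214926, + strand), Tgtp1 (chr11:48992310-48992339, − strand) and Tgtp2 (chr11:49064269-49064298, − strand) are shown because they hold both elements at the same distance.
Irf1: ctgatTTCCCCGAAatgatgaggccgagtg
Gbp2: tttagTTTCACTTTCactgtcttaagcata
Igtp: gccatTTCTAGGAActGAAACTGAAAgctg
Irgm2: gccatTTCCAGGAActGAAACTGAAAgctg
Tgtp1: gccatTTCCAGGAAtcGAAACTGAAAccta
Tgtp2: gccatTTCCAGGAAtcGAAACCGAAAccta

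The knockout was checked first. In CPM (counts scaled to library sizes corrected by TMM), Sin3b lay at 39.3, 38.6 and 39.4 in the Sin3Bsg1 libraries without IFNγ and at 33.6, 37.7 and 35.5 with it. In sgCtrL cells it lay at 93.2, 95.6 and 88.5 without and 80.4, 84.3 and 83.9 with. All 6 Sin3Bsg1 libraries were below all 6 sgCtrL libraries, and Sin3b RNA remained measurable. RNA levels do not show the edit itself. The paper's methods state that knockout efficiency of edited lines was checked by western blot, by sequencing amplicons of the target sites, or both. The Sin3Bsg1 libraries held 22336046 to 25485579 estimated counts, and the 12 libraries of the fit 18128055 to 27056903. Library 1 of the sgCtrL cells with IFNγ stood apart from its group (mean chi-square per gene 23.2 and 19.5 against 4.12 for the other pair), and library 1 of the Sin3Bsg1 cells with IFNγ did so to a lesser degree (6.91 and 9.63 against 3.52). Of the markers of other cells, 8 of 10 for macrophages, 8 of 9 for T and NK cells, 5 of 7 for B and dendritic cells, 3 of 6 for endothelium and 3 of 8 for fibroblasts were at or under 3 counts in every library, and the fibroblast markers are taken up with the matrix genes. The ductal markers Krt8, Krt18, Krt19 and Cdh1 were well expressed, while Epcam lay at 4.14 to 7.65 CPM in the Sin3Bsg1 libraries.

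Of 14913 genes tested with edgeR's quasi-likelihood test, 2396 rose with IFNγ (16.1% of all tested) and 1836 fell (12.3%) in Sin3Bsg1 cells at an adjusted p (Benjamini-Hochberg over all genes tested) below 0.05, 28.4% in all. The treated and untreated libraries did not overlap in 6771 genes (45.4%), 3621 higher (24.3%) and 3150 lower (21.1%). Most of these changes were small. The median change among called genes was 0.34 on the log2 scale for those that rose and −0.40 for those that fell, and 1659 and 1254 of them moved by less than 1.5-fold. At least 2-fold, 485 genes rose (3.25%) and 262 fell (1.76%), and at least 4-fold, 255 rose (1.71%) and 47 fell (0.315%). The strong changes therefore leaned to induction. Counts of called members in the lists below are to be read against the 16.1% higher and 12.3% lower of all genes tested. The balance of small changes depended on scaling. With library totals in place of TMM the calls were 1543 higher and 3046 lower, so that 33.6% of called genes were higher against 56.6% with TMM and 50.6% with RLE size factors, and the median of all genes moved to −0.08. Together the 485 genes took 0.838% to 0.847% of all TPM (levels corrected for gene length and depth) without IFNγ and 5.07% to 5.09% with it.

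Regulators of the response came first. Irf1, the main secondary factor, lay at 75.8, 78.0 and 75.6 CPM without IFNγ and 897, 903 and 916 with it, an 11.8-fold rise (log2 fold change 3.57, SE 0.04, edgeR adjusted p = 1.3e-18). Batf2, a basic leucine zipper factor, was at 0 counts in all 3 untreated libraries and at 60.9, 57.5 and 55.5 CPM with IFNγ, at least 466-fold higher against a floor of 3 counts per library. Nlrc5, the transactivator of MHC class I, rose from 1.07, 1.18 and 0.817 CPM to 107, 108 and 106 (log2 6.71). Ciita, the transactivator of MHC class II, went from at most 1 read per library to 13.2, 13.7 and 11.1 CPM, at least 102-fold. In each of these 4 genes the treated and untreated libraries were far apart. Of 9 tested IRF and related factors 8 rose and none fell by edgeR, at an unadjusted p below 0.05 or by DESeq2, with a median log2 fold change of 3.57 against 0.01 over all genes tested. Irf7 rose by 3.57 and Irf9 by 2.39 on the log2 scale.

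The receptor side moved little. Ifngr1 lay at 132, 137 and 134 CPM without IFNγ and 131, 125 and 127 with it, and neither it (log2 −0.07) nor Jak1 (0.05) nor Jak2 (−0.09) passed the test. Ifngr2 fell slightly, from 110, 106 and 116 CPM to 87.6, 84.1 and 92.4 (log2 −0.33). The groups did not overlap for Ifngr2. The feedback inhibitor Socs1, which blocks JAK kinases, rose from 4.57, 3.31 and 3.23 CPM to 62.2, 65.5 and 67.3 (log2 4.12). Cish, another SOCS family member, rose by 1.45, and Socs3 fell by 0.19. Stat2, the partner of IRF9 in the ISGF3 complex, rose from 7.88, 7.61 and 9.07 CPM to 122, 119 and 122 (log2 3.89). Of 19 receptor, kinase, STAT and SOCS genes tested, 7 rose and 3 fell with a median log2 fold change of 0.06, which turned to −0.02 with library totals.

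The guanylate-binding proteins (GBP) and immunity-related GTPases (IRG), which attack membranes of intracellular pathogens, had some of the highest list medians. All 10 GBP genes and all 13 IRG genes tested rose, with medians of 9.52 and 7.17, or 8.52 and 6.38 with genes at the floor set to their lower bound. Members silent without IFNγ, such as Gbp11, could enter the test only through treated libraries. The summed TPM of the GBP list went from 22.4 to 25.2 without IFNγ to 6379 to 6856 with it. Gbp2 climbed 327-fold, from 10.9, 12.5 and 10.3 CPM to 3678, 3596 and 3737 (log2 8.35). Igtp lay at 2.28, 2.87 and 2.75 CPM without and at 1168, 1249 and 1251 with IFNγ (log2 8.86). Tgtp1 went from 0.038, 0.479 and 0.129 CPM to 1190, 1183 and 1204. No treated library of these 3 genes came near an untreated one. Tgtp1 shares exon sequence with Gm12185, Igtp with Irgm2, and Gbp4 with Gbp8 and Gbp9, all on the same strand, and Tgtp1 and Tgtp2 are near-identical copies, so the split of reads among them is uncertain.

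The shared layout of Igtp, Irgm2, Tgtp1 and Tgtp2 was rare among the genes tested. The ISRE began 11 bases after the first base of the GAS in these 4 genes and in Gm12185, all 5 at least 4-fold higher, and in no other window of a tested gene. They were singled out after their values were seen, and copies of each other count separately here. Among promoter windows of 250 bases before the start, ISRE occurred in 28.9% of 197 windows of genes at least 4-fold higher, in 5.39% of 204 windows of genes 2-fold to 4-fold higher and in 2.7% of 13467 windows of all tested genes. GAS occurred in 14.2%, 5.88% and 5.93% of the same windows. Either element was found in 36.5% of the windows of genes at least 4-fold higher. Among genes that fell at least 2-fold, 4.9% of 204 windows held GAS and 0.49% held ISRE, the latter a single window of Tgfbi. Both strands were searched, GAS reads the same on both, and the windows of Cxcl9, Tap1, Psmb9 and Cd274 held neither run of letters. These shares describe letters in a window and were not tested.

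Antigen presentation by MHC class I rose throughout. H2-K1, a class I heavy chain, lay at 27.6, 27.97 and 24.98 CPM without IFNγ and 689, 744 and 746 with it (log2 4.76). B2m, the light chain, went from 133, 136 and 133 CPM to 1539, 1672 and 1784 (log2 3.64) and had the highest TPM with IFNγ among genes at least 2-fold higher, at 4022. All 11 class I genes tested rose, with a median log2 fold change of 3.46. Tap1, which carries peptides into the endoplasmic reticulum, rose from 3.31, 4.13 and 4.04 CPM to 412, 415 and 404 (log2 6.75). Psmb9, an immunoproteasome subunit, rose from 0.419, 0.479 and 0.559 CPM to 125, 138 and 136 (log2 8.09). Psmb9 and Tap1 overlap on opposite strands, and since the strand of the library kit is not given, reads in the shared stretch cannot be told apart. Of 13 peptide-loading and immunoproteasome genes 12 rose with a median of 2.77, among them Psmb8 (6.94), Tapbp (2.77), Erap1 (2.49) and Psme1 (1.998). The chaperone Canx did not pass the test (−0.00).

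MHC class II genes stayed low with IFNγ, and some of them came up from near 0. Cd74, the invariant chain, lay at 0, 0 and 0.043 CPM without and 10.9, 11.99 and 10.4 with IFNγ, at least 89.0-fold. H2-Ab1 reached 3.30, 1.86 and 3.26 CPM, at least 22.5-fold, and H2-Aa a mean of 0.612 CPM. H2-DMa was already expressed, at 1.98, 1.70 and 2.19 CPM without IFNγ and 4.55, 5.13 and 6.01 with it (log2 1.415). All 6 class II genes tested rose, with a median of 6.91, or 3.49 with genes at the floor set to their bound. The other 4 of 10 listed were at or under 3 counts in every library and were not tested. Members silent without IFNγ, such as Cd74, could enter the test only through treated libraries, so that count is not a result about the list. The summed TPM of the class II list with IFNγ, 39.4 to 41.6, was far below the 7069 to 7474 of the class I list.

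The ligands of CXCR3, which draw T cells, rose from almost nothing. Cxcl9 had 0 counts in the 3 untreated libraries and 61.5, 65.6 and 63.1 CPM with IFNγ, at least 509-fold. Cxcl10 lay at 0.114, 0.218 and 0.086 CPM without and 132, 141 and 139 with (log2 9.90), and Cxcl11 rose from 0 to 1.21, 1.13 and 1.03 CPM, at least 9.03-fold. Cx3cl1 rose by 1.70 and Cxcl16 by 0.31 on the log2 scale, so all 5 tested members rose. Of the 10 listed, 4 were at or under 3 counts in every library and were not tested. Members silent without IFNγ, such as Cxcl9, could enter the test only through treated libraries, so that count is not a result about the list. Of 9 chemokines for neutrophils and monocytes 4 rose and 1 fell, with a median of 0.04 that turned to −0.05 with library totals. Cxcl5, a neutrophil chemokine, fell from 757, 753 and 843 CPM to 514, 579 and 604 (log2 −0.47), the monocyte chemokine Ccl2 rose by 1.15, and Cxcl1 did not pass the test (0.02).

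Among immune regulators, Cd274, which encodes PD-L1, rose 12.8-fold, from 12.3, 13.7 and 12.6 CPM to 170, 162 and 163 (log2 3.68). Ido1, which degrades tryptophan, rose from 0.228, 0 and 0.172 CPM to 44.1, 42.9 and 47.0 (log2 8.28). Nos2, the inducible nitric oxide synthase, rose from 7.84, 6.83 and 7.31 CPM to 147, 145 and 135 (log2 4.28). None of these 3 genes overlapped between treated and untreated libraries. Wars, the tryptophanyl-tRNA synthetase, rose by 3.30. Of 15 checkpoint ligands and inhibitors 9 rose and none of the tested members fell by edgeR, at an unadjusted p below 0.05 or by DESeq2, with a median of 0.19, whereas 7 rose and 1 fell with library totals. Of 12 cytokines tested 6 rose and 2 fell. Il15, which sustains NK cells, rose by 1.15, while Il1rn, the IL-1 receptor antagonist, fell from 114, 112 and 107 CPM to 46.9, 48.1 and 46.3 (log2 −1.24) and Il33, an alarmin, fell by 0.91.

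**Figure D1:**
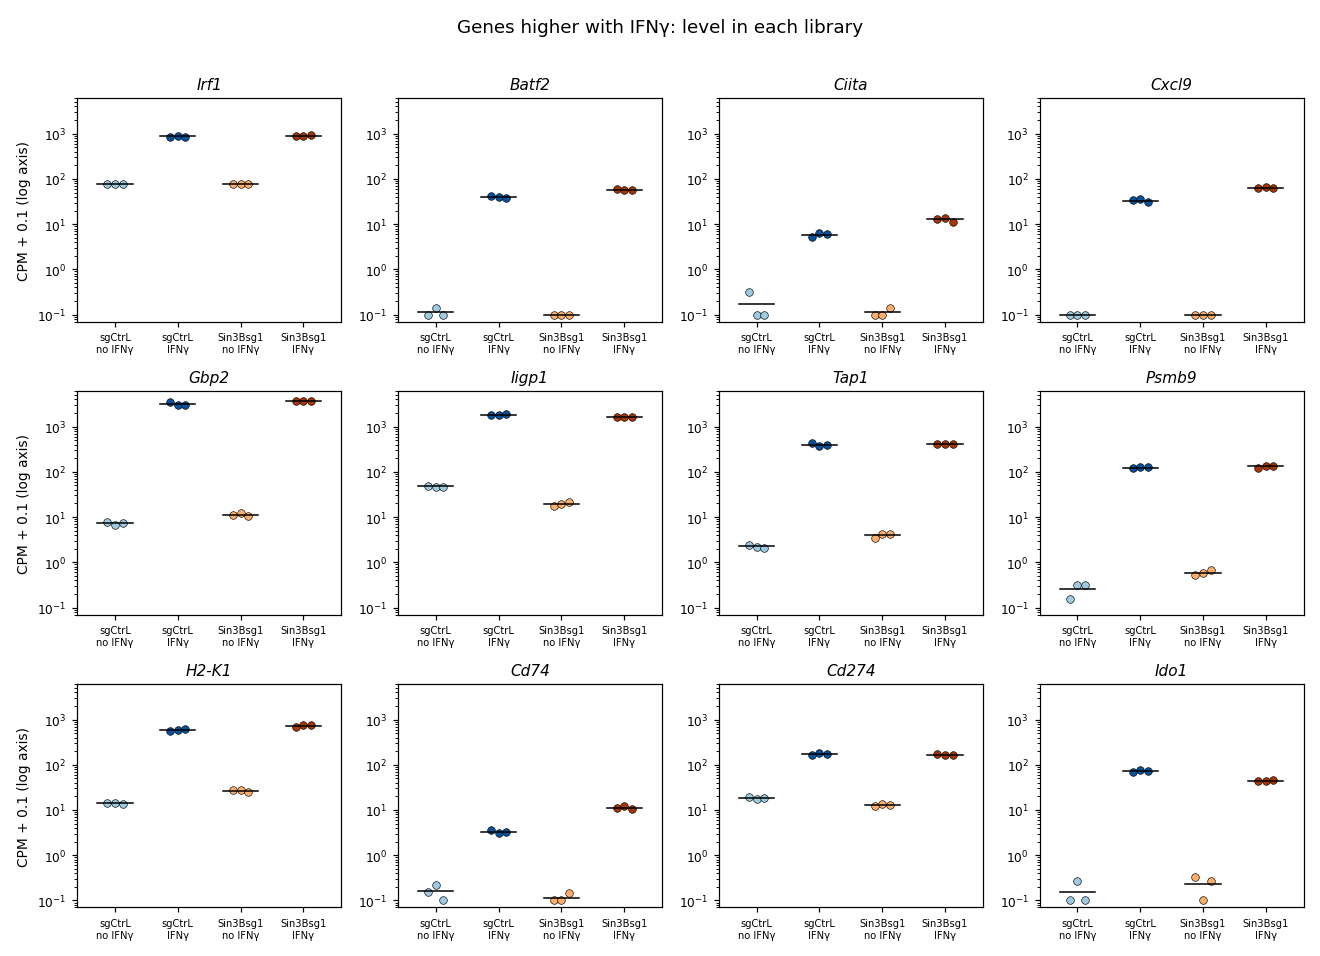
Level of 12 induced genes in each of the 12 libraries, in CPM with a small constant added on a log axis; points are libraries of the 4 groups, sgCtrL and Sin3Bsg1 without and with IFNγ, and lines are group means. In both genotypes every treated library lies above every untreated one, with Irf1 at 897 to 916 CPM in treated Sin3Bsg1 cells and Cxcl9 at 0 without IFNγ.

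Antiviral genes usually linked to type I interferon rose almost as a block: 34 of 36 tested rose and 1 fell, with a median of 3.70. Ifi44 was at least 226-fold higher, Rtp4 rose by 8.22, Ifit1 by 6.29, Oasl2 by 6.10 and Isg15, a ubiquitin-like modifier, by 5.68. Ifitm2, a restriction factor of viral entry, was the exception and fell from 362, 358 and 334 CPM to 226, 239 and 232 (log2 −0.59), while its relative Ifitm3 rose by 0.98. Bst2, which tethers virions, rose from 14.5, 14.2 and 13.7 CPM to 152, 190 and 194 (log2 3.66).

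Of 14 nucleic acid sensing and Ifi200 genes 12 rose, with a median of 1.93. The Z-nucleic acid sensor Zbp1 rose by 8.93 and Tlr3, a sensor of double-stranded RNA, from 17.9, 18.6 and 18.8 CPM to 70.6, 67.0 and 60.9 (log2 1.84). Aim2, a DNA sensor, did not pass the test (−0.07). Of 19 TRIM and interferon-linked PARP genes 18 rose, among them Parp14 (4.80), Dtx3l (3.61), Parp9 (3.49) and Trim21 (3.40), and Dtx3l and Parp9 overlap on opposite strands. Of 19 cell death genes 11 rose and 1 fell, with a median of 0.46. The death receptor Fas rose by 2.32, the necroptosis effector Mlkl by 2.26, Casp1 by 2.02 and Casp12 by 1.65, and the BH3-only gene Bcl2l11 fell by 0.26.

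Complement and acute-phase genes divided evenly, with 8 of 19 higher and 8 lower and a median of 0.03, which turned to −0.05 with library totals. The largest rises were in a pair of serpin genes, Serpina3f (at least 264-fold) and Serpina3g (at least 128-fold). Serping1, the C1 inhibitor, rose by 4.52, and of the complement genes C4b by 3.95, C1s1 by 2.32, C1ra by 1.68 and Cfb by 1.14. Other serpins fell, Serpina3m by 2.10 and Serpina3n by 0.96. Lrg1, a glycoprotein of the acute phase, went from 4.23, 2.74 and 2.58 CPM to 0.125, 0 and 0.258 (log2 −4.61), the haptoglobin gene Hp from 7.31, 9.05 and 7.70 CPM to 1.67, 2.95 and 1.68 (log2 −1.93), and Lcn2, an iron-sequestering lipocalin, from 168, 176 and 168 CPM to 106, 111 and 113 (log2 −0.63). The complement gene C3 also fell, by 0.38. Of 16 NF-kB subunits and feedback genes 5 rose and 1 fell with a median of 0.00, against 3 and 3 with library totals. Icam1, the adhesion ligand of leukocytes, rose by 2.16, and the inhibitor Nfkbia fell by 0.28.

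In all, 36 genes went from at most 3 counts in each untreated Sin3Bsg1 library to a mean of at least 1 CPM with IFNγ. Of these, 17 reached a mean of 5 CPM. Gm45234 was among the 17 at 21.9, 0 and 2.28 CPM, so its mean rests mostly on 1 library. Apol6, a member of the apolipoprotein L family, had the highest bound, at least 576-fold, followed by Cxcl9, Batf2, Gbp8 (at least 411-fold) and Serpina3f (at least 264-fold). No gene went the other way, from at least 1 CPM to the floor.

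**Figure D2:**
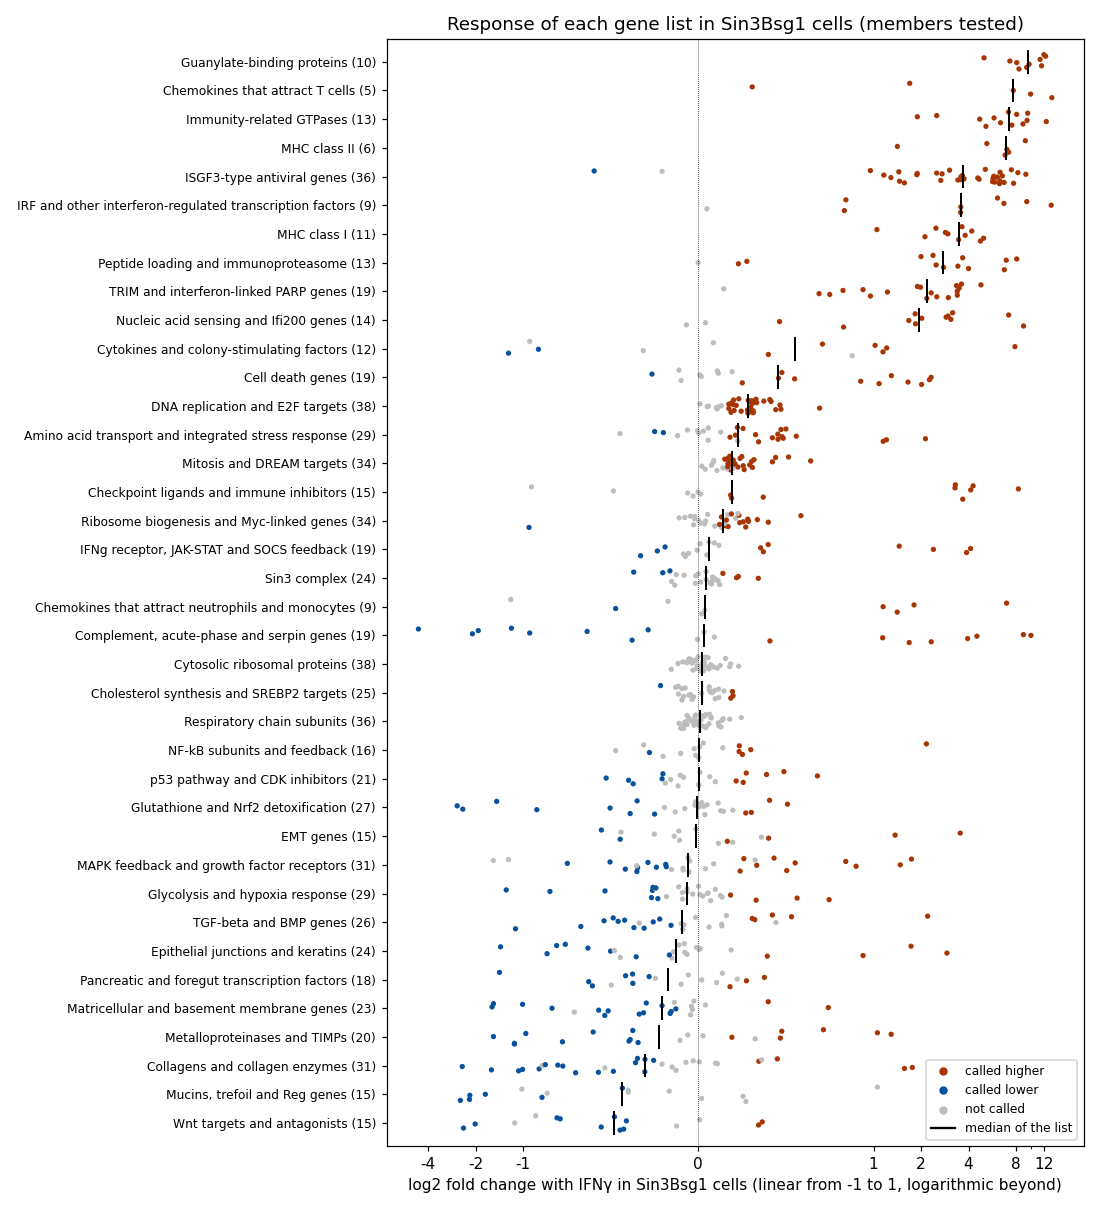
Log2 fold change with IFNγ in Sin3Bsg1 cells for the tested members of each gene list, on an axis linear from −1 to 1 and logarithmic beyond; each point is a gene, red where called higher, blue where called lower and grey where not called, and the vertical mark is the list median. The GBP, IRG, class I, class II and antiviral lists lie far to the right, with medians of 9.52, 7.17, 3.46, 6.91 and 3.70, while collagen, Wnt and mucin lists lie left of 0, with medians of −0.31, −0.48 and −0.43.

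The falls were smaller than the rises. The 262 genes at least 2-fold lower took 0.233% to 0.235% of all TPM without IFNγ and 0.0802% to 0.0870% with it. Among genes with at least 5 CPM, Gpx2, a glutathione peroxidase of gut epithelium, fell the most, from 21.3, 21.2 and 20.3 CPM to 3.72, 2.87 and 3.65 (log2 −2.62, SE 0.13, edgeR adjusted p = 1.22e-10). Gsta3, a glutathione transferase, fell from 11.3, 10.5 and 12.4 CPM to 1.71, 2.79 and 1.89 (log2 −2.41). Untreated and treated libraries did not overlap for either gene. Over the glutathione and Nrf2 list, however, only 8 of 27 tested genes fell and 4 rose, and the median was −0.01. Gclc, the rate-limiting enzyme of glutathione synthesis, fell by 0.39, Aldh3a1 fell by 1.47 and Gstm1 by 0.50, whereas the mitochondrial superoxide dismutase Sod2 rose by 0.51.

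Among secretory epithelial genes, mucins fell. Muc5b, a gel-forming mucin, went from 42.2, 39.0 and 41.3 CPM to 10.0, 9.04 and 7.77 (log2 −2.19), and Muc5ac from 4.42, 3.87 and 3.78 to 0.460, 0.888 and 0.773 (log2 −2.50). Olfm4, a secreted glycoprotein of intestinal crypts, fell from 79.9, 80.1 and 86.2 CPM to 15.5, 19.8 and 17.9 (log2 −2.21). None of these genes overlapped between the groups. Of 15 mucin, trefoil and Reg genes tested 6 fell (8 at an unadjusted p below 0.05) and none of them rose by either count or by DESeq2, with a median of −0.43, including Muc13 (−0.89) and the galectin gene Lgals4 (−0.43).

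Lgr5, a Wnt target and R-spondin receptor, fell from 16.0, 17.5 and 17.6 CPM to 4.93, 4.24 and 3.48 (log2 −2.01). Of 15 Wnt targets and antagonists tested 9 fell and 2 rose, with a median of −0.48. The feedback genes Axin2 (−0.45) and Apcdd1 (−0.41) were among those that fell, and Notum, which inactivates Wnt proteins, fell from a mean of 0.603 CPM to 0.111. Of 18 pancreatic and foregut transcription factors 7 fell and 3 rose. Sox9, a ductal progenitor factor, fell by 0.60 and Hnf4a by 0.37, while Klf4 rose by 0.38 and Pdx1 by 0.18.

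**Figure D3:**
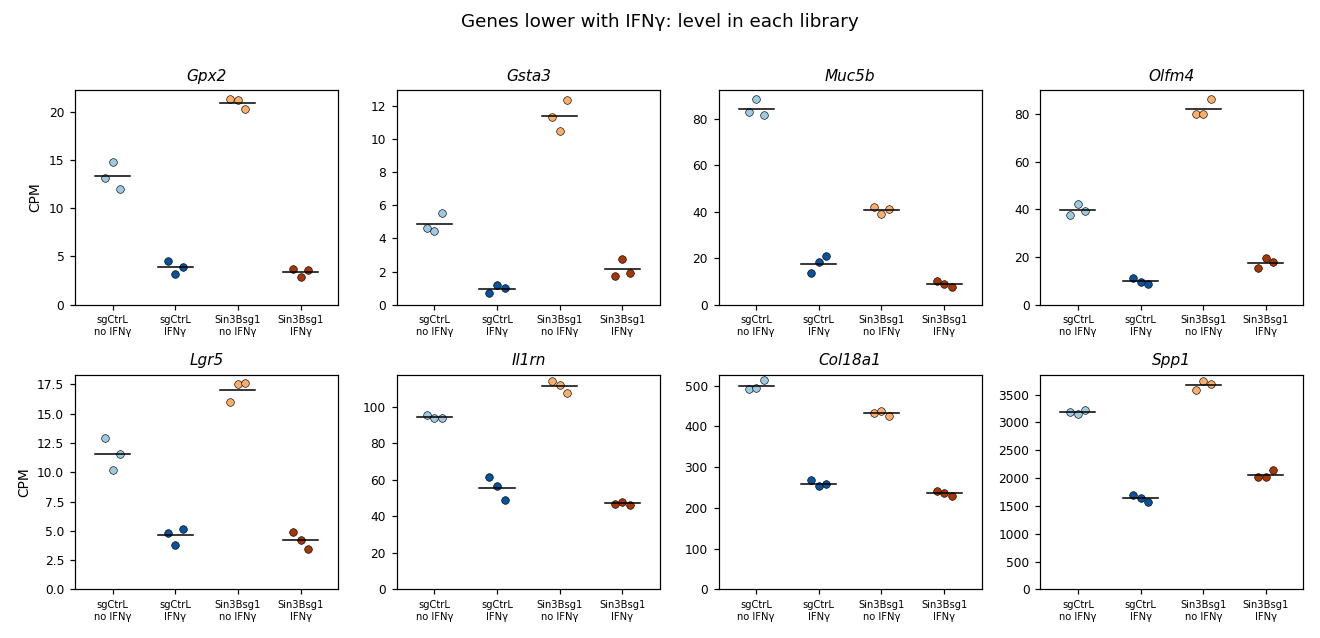
Level of 8 genes that fell with IFNγ in Sin3Bsg1 cells, in CPM on a linear axis from 0, with a point for each of the 12 libraries in the 4 groups and a line at each group mean. In Sin3Bsg1 cells every treated library lies below every untreated one, for example Muc5b at 7.77 to 10.0 CPM against 39.0 to 42.2.

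Matrix genes mostly fell among those called. Of 31 collagens and collagen enzymes tested 16 fell and 4 rose, with a median of −0.31, and of 23 matricellular and basement membrane genes 14 fell and 2 rose. Col18a1, a basement membrane collagen, fell from 432, 439 and 425 CPM to 241, 236 and 230 (log2 −0.87) and the fibrillar Col3a1 from 812, 821 and 839 to 558, 561 and 545 (log2 −0.57). Spp1, the matricellular protein osteopontin, fell from 3580, 3751 and 3695 CPM to 2014, 2025 and 2142 (log2 −0.84). The groups were apart in all 3 genes. Col11a2, a minor fibrillar collagen, had the largest fall of the collagen list (log2 −2.43), from a mean of 5.57 CPM to 1.03, and the matricellular genes Thbs2 and Tgfbi fell by 1.57 and 1.54. Fn1, the fibronectin gene, fell by 0.53 and Col6a1 by 1.01, whereas Col6a3 rose by 1.57, Col8a1 by 1.76 and Thbs1, thrombospondin 1, by 0.74. Of 8 fibroblast markers listed, 4 could be tested and 3 of these fell as well: Pdgfra (−0.45), Pdgfrb (−0.53) and Dpt (−0.91). The summed TPM of the whole marker list went from 89.0 to 96.1 without IFNγ to 56.6 to 62.4 with it, and its part in the matrix result was not tested. In bulk RNA, fewer cells of a type and less RNA per cell cannot be told apart.

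Of 20 metalloproteinases and TIMPs tested 10 fell and 6 rose. The collagenase Mmp13 fell from 732, 761 and 787 CPM to 435, 445 and 452 (log2 −0.78) and the stromelysin Mmp3 by 1.14, while Adamts1 rose by 1.29 and the inhibitor Timp3 by 0.71. Of 24 junction and keratin genes 8 fell and 4 rose: plakoglobin (Jup) fell by 0.81 and desmoplakin (Dsp) by 1.39, while Dsg2 rose by 1.73 and Krt18 by 0.94. Of 26 TGF-beta and BMP genes 11 fell and 5 rose. The ligand Tgfb2 fell by 1.12 and Fst, the activin antagonist follistatin, rose by 2.20.

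Cell-cycle genes rose by small amounts. Of 38 replication genes and E2F targets tested 31 rose with a median of 0.28, and of 34 mitotic genes 25 rose with a median of 0.19, and none of the tested members of either list fell by edgeR, at an unadjusted p below 0.05 or by DESeq2. Top2a, the topoisomerase of dividing cells, went from 728, 728 and 761 CPM to 1178, 1145 and 1134 (log2 0.64), Mcm5, a subunit of the replicative helicase, rose by 0.31, and the proliferation marker Mki67 did not pass the test (0.09). With library totals in place of TMM the counts were 23 and 13, and again no tested member fell. Of 29 amino acid transport and integrated stress response genes 17 rose and 2 fell, with a median of 0.23, among them Chac1 (2.13), Trib3 (1.21) and Atf3 (1.15). Ribosome biogenesis genes had 15 of 34 higher and 1 lower, but 9 higher and 2 lower with library totals. Of the remaining lists, cholesterol synthesis had 3 of 25 higher and 1 lower (0 and 9 with library totals), glycolysis and hypoxia 4 of 29 and 8, the p53 pathway 6 of 21 and 5, MAPK feedback and growth factor receptors 10 of 31 and 9, and EMT genes 4 of 15 and 2. In the EMT list the largest rise was Acta2 (3.545), from a mean of 0.446 CPM to 5.23, and the largest fall Itgb3 (−0.55). The AP-1 gene Jun rose by 1.48 and the EGFR ligand Areg by 1.74.

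Housekeeping lists lay near 0. Of 38 cytosolic ribosomal protein genes and 36 respiratory chain genes no member was called in edgeR, with medians of 0.02 and 0.01. At an unadjusted p below 0.05 edgeR gave 3 and 1, and DESeq2 called 2 and 1 lower. With library totals 4 of each list were called lower. Of 24 genes of the Sin3 complex 4 rose (16.7%) and 3 fell (12.5%), with a median of 0.04, against 1 and 7 with library totals. These shares were near those over all genes tested, 16.1% and 12.3%. The largest rise among those named was Brms1 (0.34) and the largest fall the histone demethylase Kdm5b (−0.37). Sin3b itself did not pass the test (−0.13, edgeR adjusted p = 0.075), though its treated and untreated libraries did not overlap. Over the alternatives and left-out libraries its log2 change was −0.22 to −0.12. The adjusted p (edgeR or DESeq2) ran from 0.00603 to 0.163, so this call depended on the setting.

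The response was set beside that of sgCtrL cells, each genotype against its own untreated libraries. In sgCtrL cells 2343 genes rose (15.7%) and 2164 fell (14.5%), 478 and 303 of them at least 2-fold. Of the 485 genes at least 2-fold higher in Sin3Bsg1 cells, 396 were so in sgCtrL cells too, which is 81.6% of the Sin3Bsg1 list and 82.8% of the sgCtrL list. Of the 262 genes at least 2-fold lower, 157 were shared, 59.9% and 51.8% of the respective lists. None of these genes was called in the opposite direction in sgCtrL cells. Across 14742 genes the log2 fold changes of the 2 genotypes had a Pearson r of 0.862 and a Spearman rho of 0.705, given as a description since genes are not independent. Irf1 rose by 3.57 in Sin3Bsg1 and by 3.51 in sgCtrL cells.

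The difference of the 2 responses, tested as an interaction, passed for 17 genes (0.114% of those tested), 12 with the more positive response in Sin3Bsg1 (0.0805%) and 5 with the more negative (0.0335%). At an unadjusted p below 0.05 there were 810 (5.43%). Iigp1, an IRG GTPase, responded more in Sin3Bsg1 cells (log2 difference 1.12, edgeR adjusted p = 2.05e-05). Its level was 17.2, 19.7 and 21.5 CPM without and 1630, 1615 and 1620 with IFNγ in Sin3Bsg1 cells, against means of 47.3 and 1820 in sgCtrL cells. The steeper rise thus started lower and ended lower. Cd274 showed a difference of 0.47 (edgeR adjusted p = 0.045), with means of 12.9 and 165 CPM in Sin3Bsg1 against 18.6 and 171 in sgCtrL cells, and the treated libraries of the genotypes overlapped. This call was lost in 13 of 18 alternatives and left-out libraries, with an edgeR adjusted p of up to 0.245. H2-K1 and H2-Q4 had the smaller response in Sin3Bsg1 (−0.63 and −0.82) and higher means there in both conditions, for H2-K1 26.9 and 726 CPM against 14.1 and 589.

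Across the 17 genes the genotypes were further apart without IFNγ than with it in 14. The median absolute log2 ratio of Sin3Bsg1 over sgCtrL levels was 0.89 without and 0.24 with IFNγ. Xdh, the xanthine dehydrogenase, Shroom3 and the aminopeptidase gene Lap3 were the other 3. Xdh lay at means of 194 and 199 CPM without IFNγ and at 712 and 576 with it, in Sin3Bsg1 and sgCtrL cells. These levels are from the libraries that gave the calls and are a description. The same ratios were not taken over all genes tested, so the count of 14 and the medians are not a result about these genes.

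**Figure D4:**
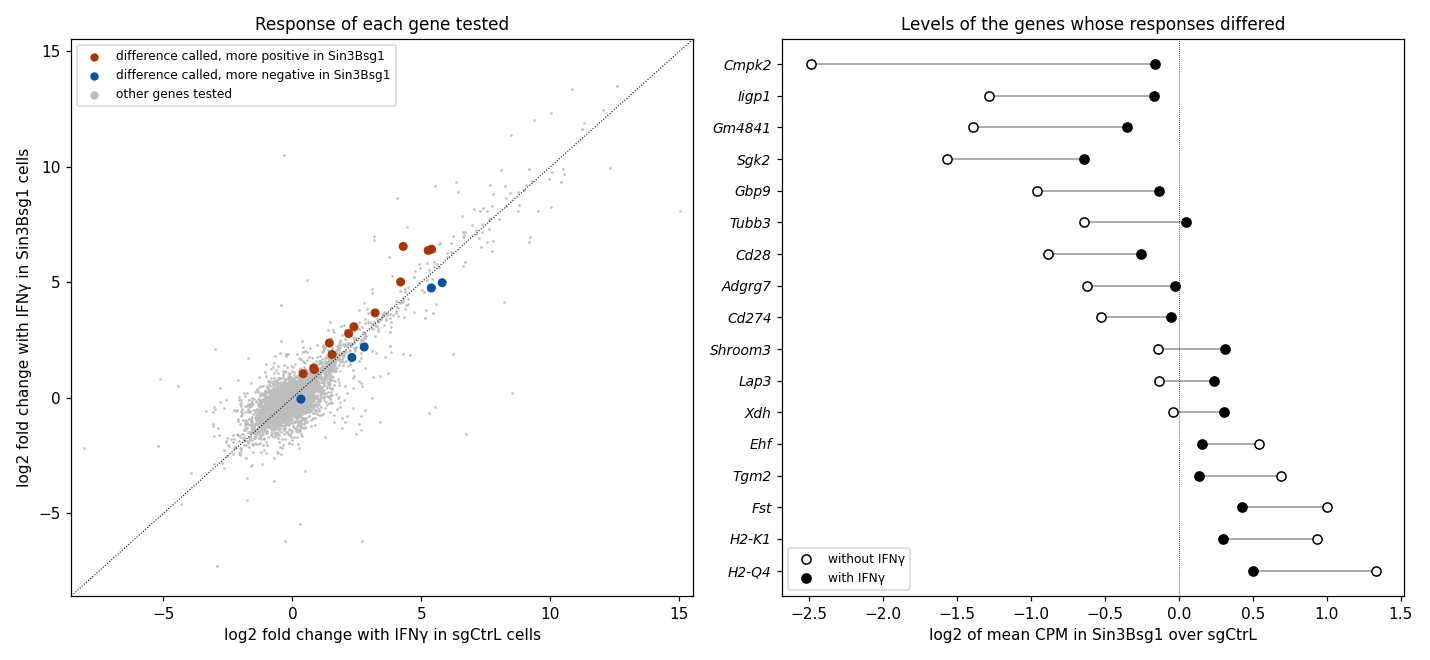
Left, log2 fold change with IFNγ of each gene tested in sgCtrL cells (x) and Sin3Bsg1 cells (y), with the 17 genes whose responses differed marked and a dotted line of equality; right, for those 17 genes, log2 of the mean CPM in Sin3Bsg1 over sgCtrL cells without (open) and with IFNγ (filled). In 14 of the 17, which were chosen by their difference in these same libraries, the filled point lies nearer 0 than the open one.

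For genes silent in untreated Sin3Bsg1 cells the fold is not usable in that comparison. Treated levels are therefore given side by side, as a description. Some of these genes, Ciita, Gbp8, Serpina3g and BC023105 among them, were above the floor in untreated sgCtrL cells. There Ciita had 4, 0 and 0 counts, Gbp8 3, 5 and 1 and Serpina3g 0, 4 and 9, so a split by this floor rests on few reads. Of the 17 genes that went from the floor to at least 5 CPM in Sin3Bsg1 cells, the treated Sin3Bsg1 libraries lay above the treated sgCtrL libraries in 9, overlapped with them in 6 and lay below them in 2. Choosing genes by their treated level in Sin3Bsg1 cells favours that side. Cd74, Fcgr4 and Ubd lay under 5 CPM in treated sgCtrL cells, and genes reaching 5 CPM only there could not enter. Where untreated sgCtrL cells were at the floor too, the counts were 7, 3 and 0, and in the other genes 2, 3 and 2. The share over all genes tested was not counted, so the tally is not a result about these genes. Cxcl9 was among the 9, at 61.5, 65.6 and 63.1 CPM against 33.5, 35.3 and 30.7, as were Ciita, at 13.2, 13.7 and 11.1 against 5.02, 6.12 and 6.04, and Cd74, at 10.9, 11.99 and 10.4 against 3.48, 3.06 and 3.15. Apol6 overlapped, with means of 71.7 and 69.5 CPM, and so did Gbp8, with 51.2 and 54.0, and Gbp11, with 22.9 and 25.1. Serpina3g was lower in Sin3Bsg1 cells, at 17.3, 14.1 and 16.5 CPM against 21.2, 17.8 and 17.4, as was BC023105, with means of 14.9 and 22.6.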

How the data were processed

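Total RNA was extracted with TRIzol and sequenced on Illumina libraries. The authors deposited estimated counts per gene, some with decimals, for 12 libraries. The methods name mm9, HISAT2 and featureCounts on uniquely mapped reads, the submitters' processing notes mm39, fastp, HISAT2 and StringTie. These disagree, versions and strand are not given in the sources used here, and no coordinates of the files were used. The deposited mean columns per group were not used. Columns named Lacz3 were taken as sgCtrL, the only other guide. Counts were rounded and fitted with edgeR 4.0.16 (R 4.3.3, filterByExpr, TMM, quasi-likelihood F test) over 12 libraries with 1 mean per group, giving 14913 of 56980 features. Contrasts were IFNγ against none in each genotype and their difference, called at an adjusted p under 0.05. TPM used the deposited gene lengths. Folds from silent genes were set against a floor of 3 counts in each library. Genes silent without IFNγ in both genotypes could pass the filter only through treated libraries, which favours rises in lists that hold them.

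The named genes were Irf1, Cxcl9, Sin3b, the 10 largest rises and falls with at least 5 CPM and no overlap, up to 4 called members of each list with the members needed to account for it, the 10 highest TPM among genes at least 2-fold higher, and the largest differences between genotypes. The libraries and lists were chosen with earlier results of these data known. RefSeq promoter windows (GRCm38.p6) were matched by symbol for 10582 of 14682 genes. Scripts were tested on simulated data. Alternatives were RLE size factors, library totals, 2 other filters, DESeq2 1.42.0, the 6 Sin3Bsg1 libraries alone, a replicate block, another call rule and leaving out each library. Some items are not reported here.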

Additional observations from a re-analysis of the deposited data

Results flagged for a closer look

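For 17 genes the IFNγ response differed between Sin3Bsg1 and sgCtrL cells by the edgeR interaction test. The differences of log2 fold change, Sin3Bsg1 minus sgCtrL, were 2.26 for Cmpk2, a mitochondrial nucleotide kinase, 1.12 for Iigp1, 1.04 for Gm4841, 0.94 for Sgk2, 0.82 for Gbp9, 0.69 for Tubb3, 0.63 for Cd28 and 0.60 for Adgrg7. They were 0.47 for Cd274, 0.45 for Shroom3, 0.38 for Lap3 and 0.34 for Xdh. On the negative side they were −0.39 for Ehf, an epithelial ETS factor that was not called in Sin3Bsg1 cells alone (−0.06), −0.56 for Tgm2, −0.58 for Fst, −0.63 for H2-K1 and −0.82 for H2-Q4. Cmpk2 started near the floor, with 6, 3 and 2 counts in untreated Sin3Bsg1 libraries against 16, 20 and 15 in untreated sgCtrL libraries. Its treated libraries overlapped between the genotypes, with means of 14.75 and 16.51 CPM. Iigp1 was called under every alternative and with each library left out, with a log2 difference between 1.03 and 1.19. Each of the other 16 was lost in some of the 18 alternatives and left-out libraries: Sgk2 in 14, Cd274 and Lap3 in 13, Tubb3 in 12, Cd28, Shroom3 and Xdh in 11, Cmpk2 and Adgrg7 in 10, Ehf and Gm4841 in 9, Fst in 8, Tgm2 in 7, H2-Q4 in 6, Gbp9 in 5 and H2-K1 in 2. H2-K1 was lost without the untreated sgCtrL library 3 (edgeR adjusted p = 0.081) or the untreated Sin3Bsg1 library 2 (0.058).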

How the results depend on the processing

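No gene past the threshold that was named by rank, or as Irf1, Cxcl9 or Sin3b, changed its direction under any alternative run. Members named only to account for a list were not followed gene by gene. The balance of calls turned from 2396 higher and 1836 lower to mostly lower with library totals. The medians of 9 of 38 lists, all within 0.0611 of 0 under TMM, changed sign with library totals. That scaling gave 1543 genes higher and 3046 lower in Sin3Bsg1 cells, with the median of all genes at −0.08. The rule of 1.5-fold with an unadjusted p gave 832 and 774, and 140 and 122 for the difference between genotypes. Without a filter on low counts that difference gave 55 and 55, and with DESeq2 19 and 13. The balance of the Sin3 complex turned from 4 higher and 3 lower to 1 and 7, of cholesterol synthesis from 3 and 1 to 0 and 9, of the p53 pathway from 6 and 5 to 5 and 8, of the MAPK list from 10 and 9 to 8 and 13 and of EMT genes from 4 and 2 to 2 and 5 with library totals. The causes were not tested. Leaving out 1 library at a time gave 1727 to 2827 higher, 1434 to 2421 lower, 462 to 514 and 234 to 302 at least 2-fold, and 1 to 25 and 0 to 8 for the difference. The 12 genes with the more positive response fell to 1 to 3 without any 1 of the 3 untreated sgCtrL libraries, the treated sgCtrL library 3 or any Sin3Bsg1 library, and rose to 25 without the treated sgCtrL library 1. The replicate block gave 2407 and 1800, and 8 and 5 for the difference. Same-numbered libraries correlated between −0.03 and 0.119 in their deviations, so the numbers were not read as pairing them. The DESeq2 counts for the response were 2066 and 1976, and 3949 of 4232 calls were shared with RLE size factors.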

Other observations

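Some of the strongly induced genes lay next to each other in the genome. Of 230 genes at least 4-fold higher in Sin3Bsg1 cells that could be placed in RefSeq order among tested genes, 110 (47.8%) had a neighbour that was also at least 4-fold higher, against 3.0% of all 13482 placed genes with such a neighbour, and 120 had none. They formed 32 runs. The longest held 8 genes of the MHC on chromosome 17: H2-DMb1, Psmb9, Tap1, Psmb8, Tap2, H2-Ab1, H2-Aa and H2-Eb1. A run of 7 Ifi200 genes lay on chromosome 1, 6 Gbp genes from Gbp8 to Gbp11 on chromosome 5, and 5 Apol genes on chromosome 15. Members of a run can be copies of each other and share reads, and no test was made.

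Genes called in opposite directions in the 2 genotypes numbered 2. Nup210, a nuclear pore gene, changed by −0.39 in Sin3Bsg1 and 0.28 in sgCtrL cells, and Thsd7a by 0.20 and −0.29. Neither difference passed the interaction test (edgeR adjusted p = 0.065 and 0.11). Both were chosen after their values were seen.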
